A study of Arabidopsis thaliana with 9 samples.

Results

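The comparison described here sets all plants labelled as carrying an RNA interference transgene against PPD3 (AT1G76450) against wild type, whatever the size of the plants. The 6 libraries labelled PPD3-RNAi, 3 from plants labelled dwarf and 3 from plants labelled large, were taken as 1 arm and the 3 wild-type (WT) libraries as the other, which uses all 9 libraries of the series. A gene was counted as changed in all 6 RNAi libraries when edgeR's quasi-likelihood test called it (p below 0.05 after Benjamini-Hochberg adjustment across the 19870 genes that passed a filter on low counts) and when its level in each of the 6 lay above, or in each lay below, that of all 3 WT libraries. Genes with locus codes from AT4G00020 to AT4G15910, where all 6 libraries were raised as a block, were set aside. Of all genes tested 5.1% were called, 4.6% upwards and 0.498% downwards, and inside this range 47.4% were called upwards and 0.0964% downwards. This left 18833 genes, of which 517 met the rule, 419 higher and 98 lower. The call and the direction of these 517 genes come from the rule itself, so their values are given as a description.

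All plants were Arabidopsis thaliana of the Col-0 accession, and RNA came from aboveground tissue at bolting. The same conditions are given for all 9 libraries. These were stratification for 2 days at 4 °C and growth between 20 and 22 °C with a photoperiod of 12 h. The dwarf and the large group both carry the transgene (T+ in the labels), and WT carries none. The promoter of the transgene, the number of independent lines and the number of plants per library are not given in the labels, so p-values measure the spread between these libraries. Counts assigned to genes lay between 34660392 and 35217754 per library. Runs of neighbouring genes were raised in some RNAi libraries against the WT mean, and genes inside them are marked below. Median ratios were 1.43 to 1.89 in all 6 at the start of chromosome 4 (TAIR10.1, 2895 to 9033648). They were 1.42 to 1.43 at the start of chromosome 3 (8723 to 1108252), in dwarf 1 and in the 3 large libraries. At the end of chromosome 1 (25631689 to 30424152) dwarf 1 and dwarf 2 stood at 1.42 and 1.45, and at its start (3631 to 11719988) dwarf 3 stood at 1.4. In the 3 WT libraries these medians lay between 0.985 and 1.01.

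PPD3 belongs to the PsbP domain proteins, relatives of a subunit of the oxygen-evolving complex of photosystem II that are imported into the chloroplast lumen. Signals from plastids reach the nucleus and alter the transcription of nuclear genes for photosynthesis, stress responses and growth. In RNA interference, a double-stranded transcript is cut into small RNAs that direct the cleavage of matching messenger RNA. PPD3 stood at 77.9 to 128 CPM in the RNAi libraries (median 92.0) and at 115, 100.3 and 91.1 CPM in WT 1, 2 and 3, where CPM are counts scaled to library size with a TMM factor. The arms overlapped, and the log2 fold change of RNAi minus WT was -0.07 (SE 0.15, 95% interval -0.41 to 0.28, edgeR adjusted p = 0.872). It took the opposite sign, at 0.03, without WT 1. PPD3 lies in the end of chromosome 1 raised in dwarf 1 and dwarf 2, at 28684551 to 28686244, and the log2 fold change was -0.24 with the regional steps taken out and -0.18 with limma voom. No fall of PPD3 passed the test in the libraries labelled RNAi, which are called RNAi libraries below only after their labels.

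By edgeR's test the shared changes were mostly rises, and they were under 2-fold for most genes. Among the genes outside the chromosome 4 range, edgeR called 2.77% (521 of 18833), 423 up and 98 down, and all but 4 of these also showed no overlap between the arms. The split was more even by other counts, with 896 up and 531 down by DESeq2, 1608 and 842 by limma voom, and 1211 above and 921 below WT in every RNAi library whatever the test. Of the 419 risers 156 were at least 2-fold higher, with a median log2 fold change of 0.87 and a range from 0.32 to 10.16. Of the 98 fallers 15 were at least 2-fold lower, with a median of -0.47 and a range from -0.27 to -5.93. Over all 18833 genes the median was 0.02. Risers were of low level in WT, with a median of 3.19 CPM against 15.1 CPM for all genes outside the range, and 97 of them stood under 1 CPM in WT. Fallers had a median of 32.0 CPM in WT. Risers lay on every chromosome (126, 56, 117, 37 and 83 on chromosomes 1 to 5), and 102 of them, like 6 of the fallers, lay in another of the raised regions. At the border of the rule stood the risers ZPR2, AT1G18410 and AT1G16640, with adjusted p from 0.0491 to 0.0496, and just outside it SGR4, CDKB2;2 and AT3G12290, each at 0.0501.

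These calls rest on all 3 WT libraries. Without WT 1 the rule left 12 genes, without WT 2 it left 17 and without WT 3 it left 232, while without large 1 or large 2 it left 263 or 280 and without dwarf 1 it left 607. The count also moved with the treatment of the raised regions. With the genes of all raised regions left out of the fit, 409 of the 517 genes remained in it and 246 genes met the rule. With each region's step taken out of the libraries that carry it, 271 met it. The adjustment behind the 517 covered all 19870 genes tested, among them the chromosome 4 range, where 47.4% were called upwards. The part of that range in the number of calls outside it was not tested. With upper-quartile factors in place of TMM, 307 genes rose and 128 fell. Against the same WT libraries, the median log2 fold change of the 419 risers was 0.88 in the dwarf group and 0.85 in the large group, and edgeR called 332 of them in dwarf and 248 in large. For the 98 fallers the medians were -0.52 in dwarf and -0.44 in large, with 75 and 28 called. Over all genes outside the range, 6.2% were called in dwarf against WT and 2.7% in large against WT. A test of dwarf against large called 1 of the 517 genes, against 0.648% of all 18833 genes. The rule favours genes that vary little among the 6 libraries, so nothing is read from this small count.

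**Figure D1:**
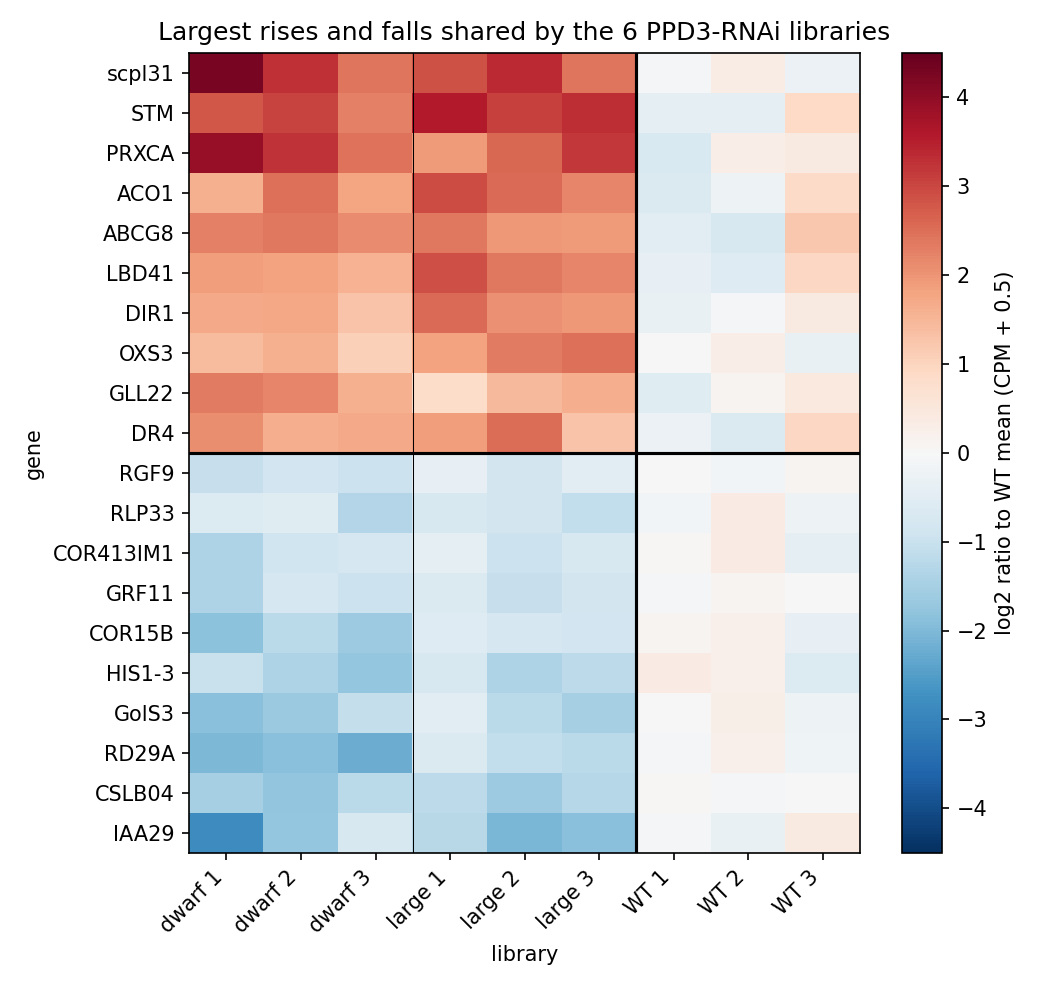
Log2 ratio to the WT mean (CPM + 0.5, colour) of the 10 largest rises and 10 largest falls of named genes, in each of the 9 libraries (columns). All 6 RNAi libraries are red in the upper 10 genes and blue in the lower 10. WT 3 is the highest WT library for STM, PRXCA, ACO1, ABCG8, LBD41, DIR1, GLL22 and DR4.

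A few genes changed by a large factor and by nearly the same amount in every RNAi library. AT3G04650, which encodes an FAD/NAD(P)-binding oxidoreductase (chromosome 3, 1261857 to 1264687), was at 42.7, 54.4 and 60.8 CPM in dwarf 1 to 3, at 44.3, 45.7 and 51.4 CPM in large 1 to 3 and at 7.10, 5.47 and 6.17 CPM in WT 1 to 3. The lowest RNAi library stood far above the highest WT library. Its log2 fold change of 3.00 (SE 0.15) had the smallest adjusted p of all genes tested (edgeR, 7.89e-05), and it was 2.91 to 3.10 under the alternatives. It lies just beyond the raised start of chromosome 3. Like the rest of this paragraph, it was chosen after its values were seen.

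AT1G75945, of unknown function, went the other way. It had 181, 140 and 179 reads in WT 1, 2 and 3 and 1, 3 and 1 reads in dwarf 1 to 3 and 4, 5 and 2 reads in large 1 to 3. The arms were far apart, with a log2 fold change of -5.93 (SE 0.33, edgeR adjusted p = 9.28e-05). AT1G27565, also of unknown function, had 0 reads in all 3 WT libraries and 2.86 to 5.68 CPM in the RNAi libraries (median 4.21), at least 47.9-fold higher than the level that 3 reads per library would give. As 54.0% of the words of 50 bp in its exons recur elsewhere in the genome, its reads are uncertain. AT1G75945 lies in the end of chromosome 1 raised in dwarf 1 and dwarf 2, and AT1G27565 in the start raised in dwarf 3, while both changes were present in all 6 libraries.

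In all, 11 of the 517 genes were called without each of the 9 libraries in turn, 9 higher and 2 lower, and apart from CSLB04 they were named after that result was seen. Besides the 3 genes above they include CSLB04, a cellulose synthase-like gene, which was at 1.28 to 2.22 CPM in the RNAi libraries (median 1.83) and at 5.83, 5.47 and 5.58 CPM in WT (log2 fold change -1.65, SE 0.18, edgeR adjusted p = 0.00486). The WT libraries lay close together and above every RNAi library. AT1G14200, for a RING/U-box protein, a class that holds many ubiquitin ligases, rose from 11.2, 11.8 and 10.3 CPM in WT to between 24.7 and 37.2 CPM (log2 fold change 1.5, SE 0.13). AT1G22190, for a DNA-binding protein of the AP2/ERF type, rose from 12.1, 12.3 and 10.1 CPM to between 20.3 and 24.4 CPM (0.97, SE 0.10). Both lie in the raised start of chromosome 1.

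Of the others, USPL1, named for an unknown seed protein, rose from 0.533, 0.468 and 0.512 CPM in WT to between 2.78 and 4.42 CPM (log2 fold change 2.96, SE 0.20). ABCB15, an ABC transporter, rose from 0.947, 0.907 and 1.42 CPM to between 3.64 and 5.60 CPM (2.00, SE 0.22), and UMAMIT36, of a family of amino acid exporters, from 0.503, 0.644 and 0.768 CPM to between 2.62 and 4.82 CPM (2.56, SE 0.27). The neighbours AT1G71690, for a glucuronoxylan methyltransferase-like protein, and AT1G71691, for a GDSL lipase, had 0, 0 and 1 read each in WT. In the RNAi libraries AT1G71690 had 20 to 41 reads and AT1G71691 had 22 to 63. They lie on opposite strands and overlap, and the library kit keeps no strand, so reads in the shared stretch cannot be assigned to either gene. UMAMIT36 and this pair lie in the raised end of chromosome 1.

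Transcripts of the class I KNOX homeobox genes, which keep cells of the shoot meristem undifferentiated and are shut off in leaves, were higher in all 6 RNAi libraries. STM (SHOOT MERISTEMLESS, chromosome 1, 23058582 to 23062063) had 165, 196 and 97 reads in dwarf 1 to 3, 288, 204 and 232 reads in large 1 to 3, and 1, 1 and 30 reads in WT 1 to 3. WT 3 stood well above the other WT libraries and still below every RNAi library. The log2 fold change was 4.17 (SE 0.80, edgeR adjusted p = 0.0215), with 3.80 in dwarf and 4.46 in large. STM passed the rule for named genes, and the other members of the class were looked up after its values were seen.

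KNAT6, which acts at organ boundaries of the shoot, had 92, 84 and 78 reads in dwarf, 162, 116 and 103 in large and 18, 17 and 33 in WT (log2 fold change 2.19, SE 0.31, edgeR adjusted p = 0.00819). KNAT2 had 28, 40 and 15 reads in dwarf, 64, 41 and 28 in large and 0, 0 and 7 in WT (3.85, SE 0.87, adjusted p = 0.0358). KNAT1 (BREVIPEDICELLUS), which shapes stem internodes, had 220, 226 and 74 reads in dwarf, 248, 199 and 150 in large and 0, 0 and 30 in WT (4.17, SE 0.94, adjusted p = 0.0359). In all 4 genes the arms did not overlap, large 1 was the highest library and WT 3 the highest WT library. KNAT1 lies inside the chromosome 4 range and is no member of the 517, and KNAT6 and KNAT2 lie in the raised start and end of chromosome 1. Without WT 2 the adjusted p were 0.0984 for STM, 0.15 for KNAT2 and 0.133 for KNAT1, and without WT 1 that of KNAT6 was 0.0670.

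In whole aboveground tissue, more cells of a type and more RNA per cell cannot be told apart. The share of meristem, stem and leaf in each library was not recorded in the labels. The 20 secondary wall and xylem genes listed as stem markers summed to 96.9 to 161 CPM in the RNAi libraries (median 153) and 148 to 158 CPM in WT, with SND1 at 0 in all 9 libraries. The RNAi libraries differed among themselves. Over the 18 of these genes tested, dwarf 1 and dwarf 2 stood at 97 and 102 CPM, below every WT library. The other RNAi libraries stood at 147 to 161 CPM. The 17 floral organ markers summed to 1.36 to 2.35 CPM in RNAi (median 1.98) and 1.35 to 1.76 CPM in WT, with SUP at 0 throughout. The arms overlapped in both lists. The part of a differing share of stem or meristem in the KNOX values was not tested.

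**Figure D2:**
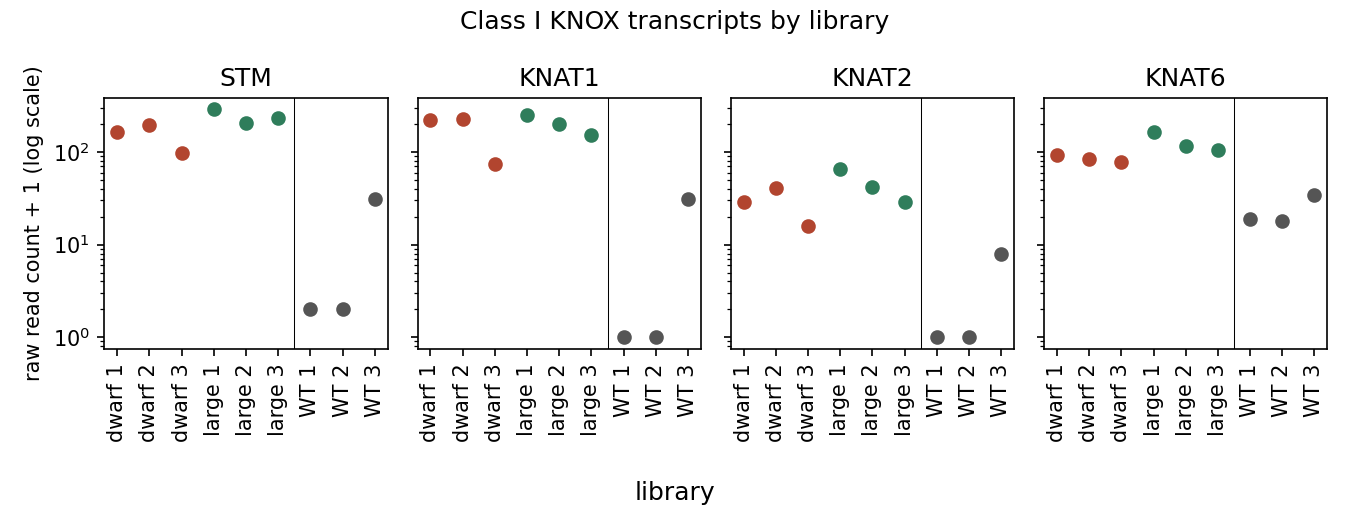
Raw read counts plus 1 (log axis) of STM, KNAT1, KNAT2 and KNAT6 in each library, with dwarf in red, large in green and WT in grey. The RNAi libraries all lie above WT, and WT 3 (30, 30, 7 and 33 reads) lies above WT 1 and WT 2.

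Genes of cell division in the lists also stood higher. Of 30 cell cycle and DNA replication genes tested outside the chromosome 4 range, 3 rose and none fell by edgeR's test, 12 lay above WT in every RNAi library, and the list's median log2 fold change was 0.42. Over all genes, 2.25% rose and 6.43% lay above WT in every RNAi library. CYCB1;1, a cyclin of mitotic cells, was at 3.49 to 5.55 CPM in RNAi (median 3.97) and 2.1, 1.99 and 2.65 CPM in WT (log2 fold change 0.91, SE 0.19, adjusted p = 0.0289). CDKB2;1, a kinase active in mitosis, was at 15.5 to 20.8 CPM (median 18.3) and 12.0, 10.1 and 13.7 CPM (0.63, SE 0.13, adjusted p = 0.0270), in the raised end of chromosome 1, and it was not called with the regional steps taken out (adjusted p = 0.192). CYCD3;3, a cyclin that promotes cell cycle entry, was the other riser (0.68, adjusted p = 0.0364), named after its values were seen. DESeq2 called 8 and limma voom 18 of the 30 genes up. In this list and in those of low oxygen, sulfur, nitrate and heat shock genes, no member had an unadjusted p under 0.05 downwards, and neither tool called a member down.

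Of 28 auxin genes, 2 fell by edgeR's test, against 0.520% of all genes, and 1 more call in this list is not reported here. The median was -0.40 and 7 lay below WT in every RNAi library, against 4.89% of all genes. IAA29, an Aux/IAA repressor of auxin response that is induced by shade and warmth, showed the largest fall among genes with a symbol and at least 5 CPM in the higher arm. It was at 0.604, 1.87 and 4.29 CPM in dwarf, 2.79, 1.42 and 1.67 CPM in large and 7.04, 5.82 and 9.85 CPM in WT. Dwarf 3 was the highest RNAi library and lay below WT 2. The log2 fold change was -1.85 (SE 0.45, adjusted p = 0.0476), and it reached an adjusted p of 0.167 without WT 3. IAA7, another repressor of the family, fell from 81.4 to 85.3 CPM in WT to 44.1 to 69.5 CPM (-0.56, adjusted p = 0.0488). It was named after its values were seen.

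Other large rises came from genes of varied function. scpl31, a serine carboxypeptidase-like gene in the raised start of chromosome 1, had 425, 204 and 91 reads in dwarf, 144, 215 and 97 in large and 3, 10 and 1 in WT, a log2 fold change of 5.30 (SE 0.75, edgeR adjusted p = 0.00806). PRXCA, an apoplastic peroxidase that makes hydrogen peroxide in defence, was at 203, 127 and 72.7 CPM in dwarf, 50.5, 80.6 and 121 CPM in large and 7.90, 15.9 and 17.1 CPM in WT (3.00, SE 0.48, adjusted p = 0.0122). The RNAi libraries differed among themselves, with dwarf 1 the highest for both genes, and none overlapped WT. PRXCA was the single riser among 25 glutathione transferase and peroxidase genes listed, whose median was 0.30.

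Several of the remaining large risers had 1 WT library nearer to the RNAi arm. ABCG8, a transporter of the ABCG family, was at 5.90 to 8.30 CPM in RNAi (median 7.19) and at 0.680, 0.527 and 3.41 CPM in WT (log2 fold change 2.2, SE 0.52, adjusted p = 0.0436). DR4, a gene repressed by drought in the raised end of chromosome 1, was at 22.2 to 53.1 CPM (median 32.2) and 7.25, 5.47 and 17.2 CPM (1.79, SE 0.39, adjusted p = 0.0327). In both, WT 3 was the WT library closest to RNAi, and both lost the call without WT 1 (adjusted p = 0.179 and 0.163). DIR1, a lipid transfer protein of systemic acquired resistance, had 306 to 829 reads and 94, 113 and 175 reads (2.04, SE 0.30, adjusted p = 0.00907), but the whole gene overlaps AT5G48480 on the opposite strand, so its reads are uncertain. OXS3, which raises tolerance to oxidative stress, was at 6.76 to 18.6 CPM (median 10.8) and 2.99, 3.69 and 2.25 CPM (2.02, SE 0.35, adjusted p = 0.0151). GLL22, a GDSL lipase, was at 3.67 to 11.4 CPM (median 6.59) and 1.09, 2.02 and 2.67 CPM (1.94, SE 0.40, adjusted p = 0.0276).

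Genes induced by low oxygen and by sulfur shortage were higher in several members. Of 16 low oxygen genes, 3 rose and none fell, 15 were positive, 6 lay above WT in every RNAi library, and the median was 0.79, the highest of the lists. The shares over all genes were 2.25% risen and 6.43% above WT in every RNAi library. ACO1, which makes ethylene from its precursor and is also in the ethylene list, was at 7.03, 13.3 and 7.96 CPM in dwarf, 18.5, 13.9 and 10.9 CPM in large and 1.07, 1.61 and 3.98 CPM in WT (log2 fold change 2.42, SE 0.46, edgeR adjusted p = 0.0210). LBD41, a transcription factor of the hypoxia response, had 447, 420 and 312 reads, then 894, 637 and 525 reads and then 74, 62 and 213 reads in the same order (2.19, SE 0.45, adjusted p = 0.0265), in the raised start of chromosome 3. For both genes WT 3 was the highest WT library and large 1 the highest RNAi library. SUS4, a sucrose synthase used when oxygen is low, was the third (1.00, SE 0.20, adjusted p = 0.0240). By DESeq2 7 and by limma voom 10 of the 16 rose.

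Of 16 sulfur deficiency genes all were positive, 2 rose and none fell, 6 lay above WT in every RNAi library, against 2.25% and 6.43% of all genes, and the median was 0.54. LSU1 (RESPONSE TO LOW SULFUR 1) was at 1.67 to 5.31 CPM in RNAi (median 2.87) and 0.769, 0.673 and 0.484 CPM in WT, a log2 fold change of 2.29 (SE 0.40, edgeR adjusted p = 0.0155) with 1.78 in dwarf and 2.67 in large. AT1G04770, known as SDI2, a repressor of glucosinolate synthesis under sulfur shortage, was at 31.1 to 52.4 CPM (median 40.2) and 24.8, 23.7 and 26.7 CPM (0.71, SE 0.17, adjusted p = 0.0452), with 27.3% of the gene overlapped by VAMP726, which rose by 0.96. Of 19 nitrate genes 1 rose, against the same 2.25%, the repressor LBD37 (0.50, SE 0.10, adjusted p = 0.0217), and the median was 0.44.

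Among the fallers, genes induced by cold and drought stood out by number. Of 28 abscisic acid, drought and cold genes, 4 fell and none rose by edgeR's test, against 0.520% of all genes that fell. Of the 28, 13 had an unadjusted p under 0.05 downwards and 0 upwards, and DESeq2 called 10 and limma voom 11 down and 0 up. In all, 11 lay below WT in every RNAi library, against 4.89% of all genes, and the median log2 fold change was -0.55. RD29A (LTI78 in the reference, chromosome 5, 21240717 to 21243644), a desiccation and cold gene, was at 274, 302 and 235 CPM in dwarf, 701, 517 and 483 CPM in large and 1073, 1309 and 970.1 CPM in WT. The 3 groups did not overlap, with large between dwarf and WT. The log2 fold change of the pooled arm was -1.42 (SE 0.32, adjusted p = 0.0356), with -2.05 in dwarf and -0.98 in large, and RD29A was the single member of the 517 that differed between dwarf and large (adjusted p = 0.0450).

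COR15B, a cold-regulated protein of the chloroplast stroma, was at 79.8, 122 and 92.1 CPM in dwarf, 191, 168 and 158 CPM in large and 311, 333 and 223 CPM in WT (log2 fold change -1.10, SE 0.27, edgeR adjusted p = 0.0467), with 25.4% of the gene overlapped by AT2G42520. COR47, a dehydrin, was at 229 to 387 CPM in RNAi (median 326) and 529.9, 589 and 488 CPM in WT (-0.75, SE 0.16, adjusted p = 0.0305). GolS3, a cold-induced galactinol synthase, was at 4.61 to 12.6 CPM (median 6.80) and 18.0, 22.0 and 15.3 CPM (-1.31, SE 0.28, adjusted p = 0.0288). In each the highest RNAi library was from the large group. COR413IM1, a cold-regulated protein of the inner chloroplast envelope, was outside the list and fell from 152, 188 and 108 CPM to between 54.7 and 107 CPM (-0.88, SE 0.21, adjusted p = 0.0411). COR47, GolS3 and COR413IM1 fell inside the start of chromosome 1, which was raised in dwarf 3.

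Further cold genes were looked at after their values were seen. RAP2.1, a repressor that acts downstream of the cold regulators, fell from 3.02, 3.66 and 2.36 CPM in WT to between 0.864 and 1.68 CPM (log2 fold change -1.21, SE 0.22, edgeR adjusted p = 0.0172). TINY2, of the DREB family of transcription factors, fell from 4.44, 4.86 and 4.44 CPM to between 0.933 and 2.53 CPM (-1.46, SE 0.26, adjusted p = 0.0160). COR15A was below WT in every RNAi library, at 171 to 563 CPM against 675 to 982 CPM, and was not called (-1.39, SE 0.39, adjusted p = 0.0773). Without WT 2 the adjusted p of RD29A was 0.174, that of COR15B 0.218, of COR47 0.164, of GolS3 0.153 and of COR413IM1 0.228.

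The C-repeat/DRE core CCGAC, bound by the CBF and DREB factors of the cold and drought response, was searched for on both strands in the 250 bases before the annotated start of each gene (TAIR10.1). It was present in 20.4% of the windows of the 98 fallers, in 10.5% of those of the 419 risers and in 13.0% of those of all 19863 genes with a window. The abscisic acid element core ACGTG was found in 26.5%, 17.9% and 23.5%, the G-box CACGTG, which contains it, in 9.18%, 4.30% and 7.37%, the W-box core TTGAC in 33.7%, 44.6% and 45%, and the evening element core AATATCT in 9.18%, 8.11% and 10.2%, each in the same order. RD29A has 3 matches to CCGAC (chr5:21240467-21240716, plus strand) and GolS3 has 2, read as GTCGG (chr1:3019389-3019638, plus strand). Both windows are shown because these are the fallers with the largest falls in the cold list, with the core in capitals.
RD29A: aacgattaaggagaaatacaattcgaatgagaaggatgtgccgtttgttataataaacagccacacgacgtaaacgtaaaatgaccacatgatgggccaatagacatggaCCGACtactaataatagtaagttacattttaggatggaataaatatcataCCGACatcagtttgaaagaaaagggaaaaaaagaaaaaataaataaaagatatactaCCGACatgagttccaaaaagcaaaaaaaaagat
GolS3: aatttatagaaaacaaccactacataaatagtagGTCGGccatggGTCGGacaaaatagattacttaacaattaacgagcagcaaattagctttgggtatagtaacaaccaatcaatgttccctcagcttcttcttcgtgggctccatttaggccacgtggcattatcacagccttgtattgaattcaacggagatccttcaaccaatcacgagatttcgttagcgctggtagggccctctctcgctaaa

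Heat shock genes moved up in the same libraries. Of 19 heat shock proteins and factors tested, 6 rose and none fell, 7 lay above WT in every RNAi library, against 2.25% and 6.43% of all genes, and the median log2 fold change was 0.51. HSP70 (AT3G12580), a chaperone, was at 46.9, 19.0 and 29.6 CPM in dwarf, 24.6, 40.2 and 22.3 CPM in large and 10.1, 10.4 and 12.6 CPM in WT (log2 fold change 1.47, SE 0.29, edgeR adjusted p = 0.0246). HSFA2, a heat shock factor that prolongs the response, was at 10.4, 7.02 and 3.73 CPM in dwarf, 5.86, 12.3 and 10.2 CPM in large and 2.13, 2.31 and 3.16 CPM in WT (1.7, SE 0.37, adjusted p = 0.0312). The RNAi libraries spread widely in both, with dwarf 1 or large 2 the highest, and the WT libraries lay close together. HSP70 and HSFA2 were named after their values were seen.

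HSP101, the chaperone that dissolves protein aggregates, was at 13.2 to 18.7 CPM in RNAi (median 16.4) and 8.67, 10.2 and 10.5 CPM in WT (log2 fold change 0.73, SE 0.12, edgeR adjusted p = 0.0144), in the raised end of chromosome 1, and had an adjusted p of 0.140 with the regional steps taken out. DREB2A, a factor of the drought and heat response, was at 18.0 to 40.2 CPM (median 25.1) and 11.7, 12.2 and 12.7 CPM (1.16, SE 0.23, adjusted p = 0.0244). The coactivator MBF1C (0.77, adjusted p = 0.0283) and the factor HSFA7A (1.2, adjusted p = 0.0356) were the other risers, named after their values were seen. DESeq2 called 7 and limma voom 8 of the 19 up. The pair GAANNTTC of the heat shock element, a motif added after these values were seen, was found before 11% of risers, 8.16% of fallers and 9.49% of all genes. HSFA2 has 2 matches, in capitals in its window (chr2:11135374-11135623, plus strand, a stretch that overlaps the neighbouring gene AT2G26140), which is shown as the riser of this list with the largest fold change.
HSFA2: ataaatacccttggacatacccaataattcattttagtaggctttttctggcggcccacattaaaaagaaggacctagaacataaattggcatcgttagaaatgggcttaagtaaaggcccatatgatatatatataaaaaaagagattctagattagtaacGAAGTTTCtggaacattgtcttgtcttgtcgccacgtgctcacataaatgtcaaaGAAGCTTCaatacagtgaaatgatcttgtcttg

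**Figure D3:**
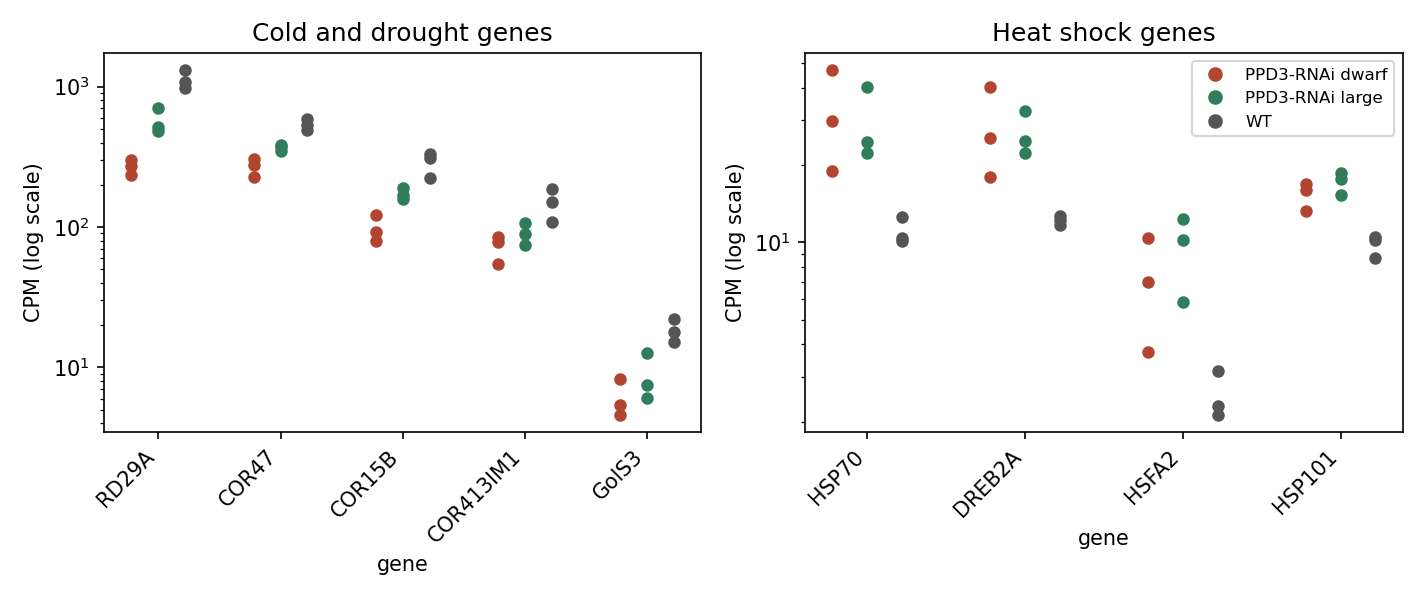
CPM (log axis) of 5 cold and drought genes and 4 heat shock genes, 1 point per library, with dwarf in red, large in green and WT in grey. Each cold gene is lower in all RNAi libraries than in WT, with dwarf below large for RD29A, COR47 and COR15B, and each heat shock gene is higher.

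Many of the risers were genes for pentatricopeptide repeat (PPR) proteins. PPR proteins bind RNA in plastids and mitochondria, where they guide the editing, splicing and stabilisation of organelle transcripts. They were defined by the InterPro repeat entry in the reference annotation, a grouping chosen after the list of risers was seen. Of 436 such genes tested outside the chromosome 4 range, 88 were among the 419 risers and 0 among the 98 fallers, so that PPR genes made up 21.0% of risers and 2.32% of genes tested. Outside all raised regions, 75 of 327 PPR genes met the rule upwards, or 22.9%, against 1.65% of the 14648 other genes, and 131 of the 327 lay above WT in every RNAi library, or 40.1%, against 5.20%. Of the 327, edgeR gave 155 an unadjusted p under 0.05 upwards and 0 downwards, and DESeq2 called 106 and limma voom 132 up and 0 and 1 down.

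The median shift was small, and it was present in each RNAi library. Of the 327 genes 276 had a positive log2 fold change, or 84.4%. The median log2 ratio of the 327 PPR genes to the WT mean was 0.24, 0.25 and 0.35 in dwarf 1 to 3, 0.19, 0.20 and 0.24 in large 1 to 3 and 0.01, -0.04 and 0.03 in WT 1 to 3. For the other genes the medians lay between -0.05 and 0.00 in the 9 libraries. The lowest RNAi library, large 1, stood above every WT library, and 69.7 to 91.7% of PPR genes were above the WT mean in an RNAi library. The median log2 fold change of 0.24 kept its sign under all 19 alternatives, between 0.20 with upper-quartile factors and 0.27 with the raised regions left out.

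PPR genes are of low level and often have a single exon, so the values of other genes with these features are given beside them. The 2907 other genes within the middle range of PPR levels had a median log2 fold change of 0.05, with medians of -0.03 to 0.09 in the RNAi libraries, and 2.61% of them met the rule upwards. The 1922 other genes with 1 exon had a median of 0.06, with -0.02 to 0.07 in the RNAi libraries, and 2.19% met it. Among PPR genes, the 184 with 1 exon had a median of 0.40 and 29.3% met the rule, and the 143 with more exons had a median of 0.14 and 14.7% met it. AT4G39952, whose adjusted p was among the smallest of the group, was at 5.06 to 6.14 CPM in RNAi (median 5.85) and at 2.84, 3.07 and 3.39 CPM in WT (log2 fold change 0.89, SE 0.12, edgeR adjusted p = 0.00691). AT3G25970 was at 2.59 to 3.38 CPM (median 3.25) and 1.3, 1.29 and 1.62 CPM (1.17, SE 0.16, adjusted p = 0.00697). The members share their libraries and related sequence, and they are not replicates of each other.

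**Figure D4:**
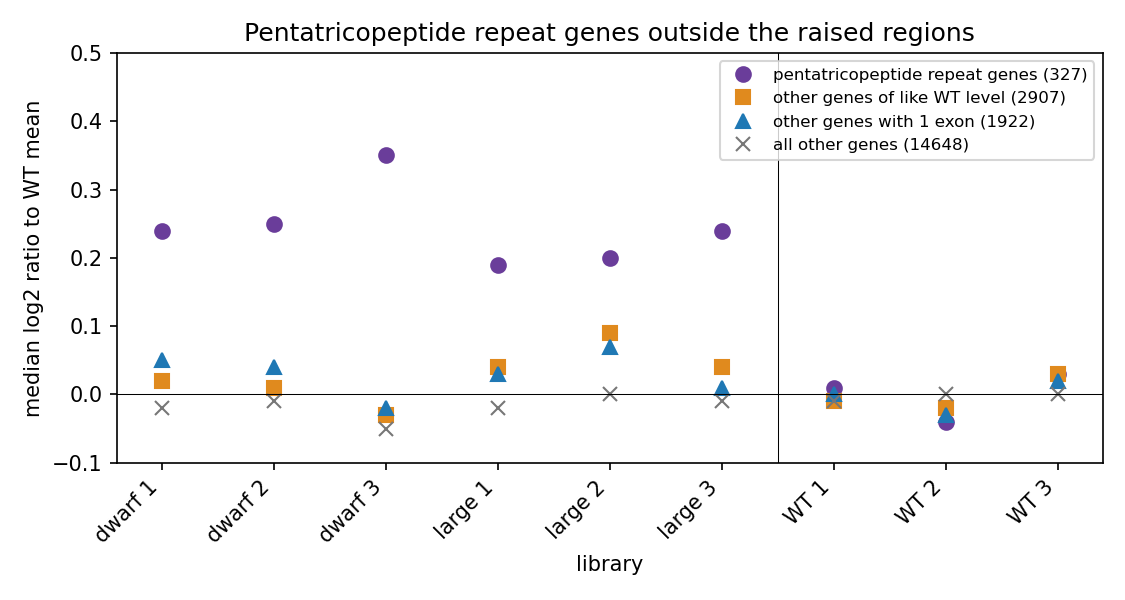
Median log2 ratio to the WT mean in each library of 327 PPR genes outside the raised regions (circles), of other genes of like WT level (squares), of other genes with 1 exon (triangles) and of all other genes (crosses). PPR genes lie between 0.19 and 0.35 in the RNAi libraries and between -0.04 and 0.03 in WT, and the other sets stay at or below 0.09 throughout.

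Genes for photosynthesis stood lower without passing the test. Of 36 photosystem and Rubisco genes tested outside the range, 0 were called by edgeR, 14 had an unadjusted p under 0.05 downwards and 0 upwards, and DESeq2 called 4 and limma voom 14 down. The median log2 fold change was -0.41, 34 of the 36 were negative, and 16 lay below WT in every RNAi library, against 4.89% of all genes. The 39 genes summed to 60988 to 126203 CPM in the RNAi libraries (median 92582) and 108695 to 124670 CPM in WT, so the arms overlapped in the sum. GLK1 (GPRI1 in the reference), a transcription factor that switches on photosynthesis genes, fell from 307, 332 and 266 CPM in WT to between 208 and 247 CPM (-0.45, SE 0.10, adjusted p = 0.0329). ELIP1, a light stress protein of the thylakoid, rose from 2.31, 2.63 and 2.11 CPM to between 2.81 and 4.85 CPM (0.78, SE 0.19, adjusted p = 0.0453). These were the 2 calls among 26 plastid and mitochondrial stress genes. The 9 PsbP domain genes outside the range were all negative, with a median of -0.18 and 0 calls, where 1 had an unadjusted p under 0.05, DESeq2 called 0 and limma voom 1, all downwards.

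Other lists held 1 or 2 calls each, beside 2.77% of all genes called, and several of their shares lie near that background. AGO2, an Argonaute of antiviral silencing in the raised start of chromosome 1, was the single call among 32 DNA methylation and RNA silencing genes, at 36.9 to 55.9 CPM in RNAi (median 46.8) and 30.4, 33.3 and 32.0 CPM in WT (log2 fold change 0.54, SE 0.13, adjusted p = 0.0456). MORC7 (AT4G24970), an ATPase of gene silencing looked up later, fell from 16.5, 14.3 and 15.3 CPM to between 10.1 and 12.9 CPM (-0.42, SE 0.09, adjusted p = 0.0330). ERF104, an ethylene response factor (0.52, adjusted p = 0.0309), was the call beside ACO1 among 23 ethylene genes. XTH16, a wall-loosening enzyme, was the single call of 27 expansin and xyloglucan endotransglucosylase genes (0.85, adjusted p = 0.0331). TOE1 (RAP2.7), a repressor of flowering, fell from 98.9, 102 and 97.8 CPM to between 71.7 and 86.1 CPM (-0.34, SE 0.07, adjusted p = 0.0299), as the single call of 22 flowering genes.

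For 16 of the 30 lists edgeR called no member. Beside photosystems, PsbP proteins and the floral and xylem markers, these were the circadian clock, cysteine-rich receptor-like kinases, DNA damage response, flavonoid and anthocyanin pathway, gibberellin and brassinosteroid, glucosinolate pathway, iron and zinc homeostasis, jasmonate, leaf senescence, light signalling, pattern-triggered immunity and camalexin, and salicylic acid defence. Their 334 entries held 15 with an unadjusted p under 0.05 upwards and 29 downwards, DESeq2 called 7 up and 10 down and limma voom 10 up and 29 down. Photosystems held 14 of the 29 and light signalling 7, and neither list held any of the 15. Of 26 light signalling genes, DESeq2 called 3 and limma voom 5 down and 0 up, and their median log2 fold change was -0.03. The medians of leaf senescence (0.34), flavonoid genes (0.32), iron and zinc genes (0.28) and cysteine-rich receptor-like kinases (0.27) were the highest of the 16 lists.

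**Figure D5:**
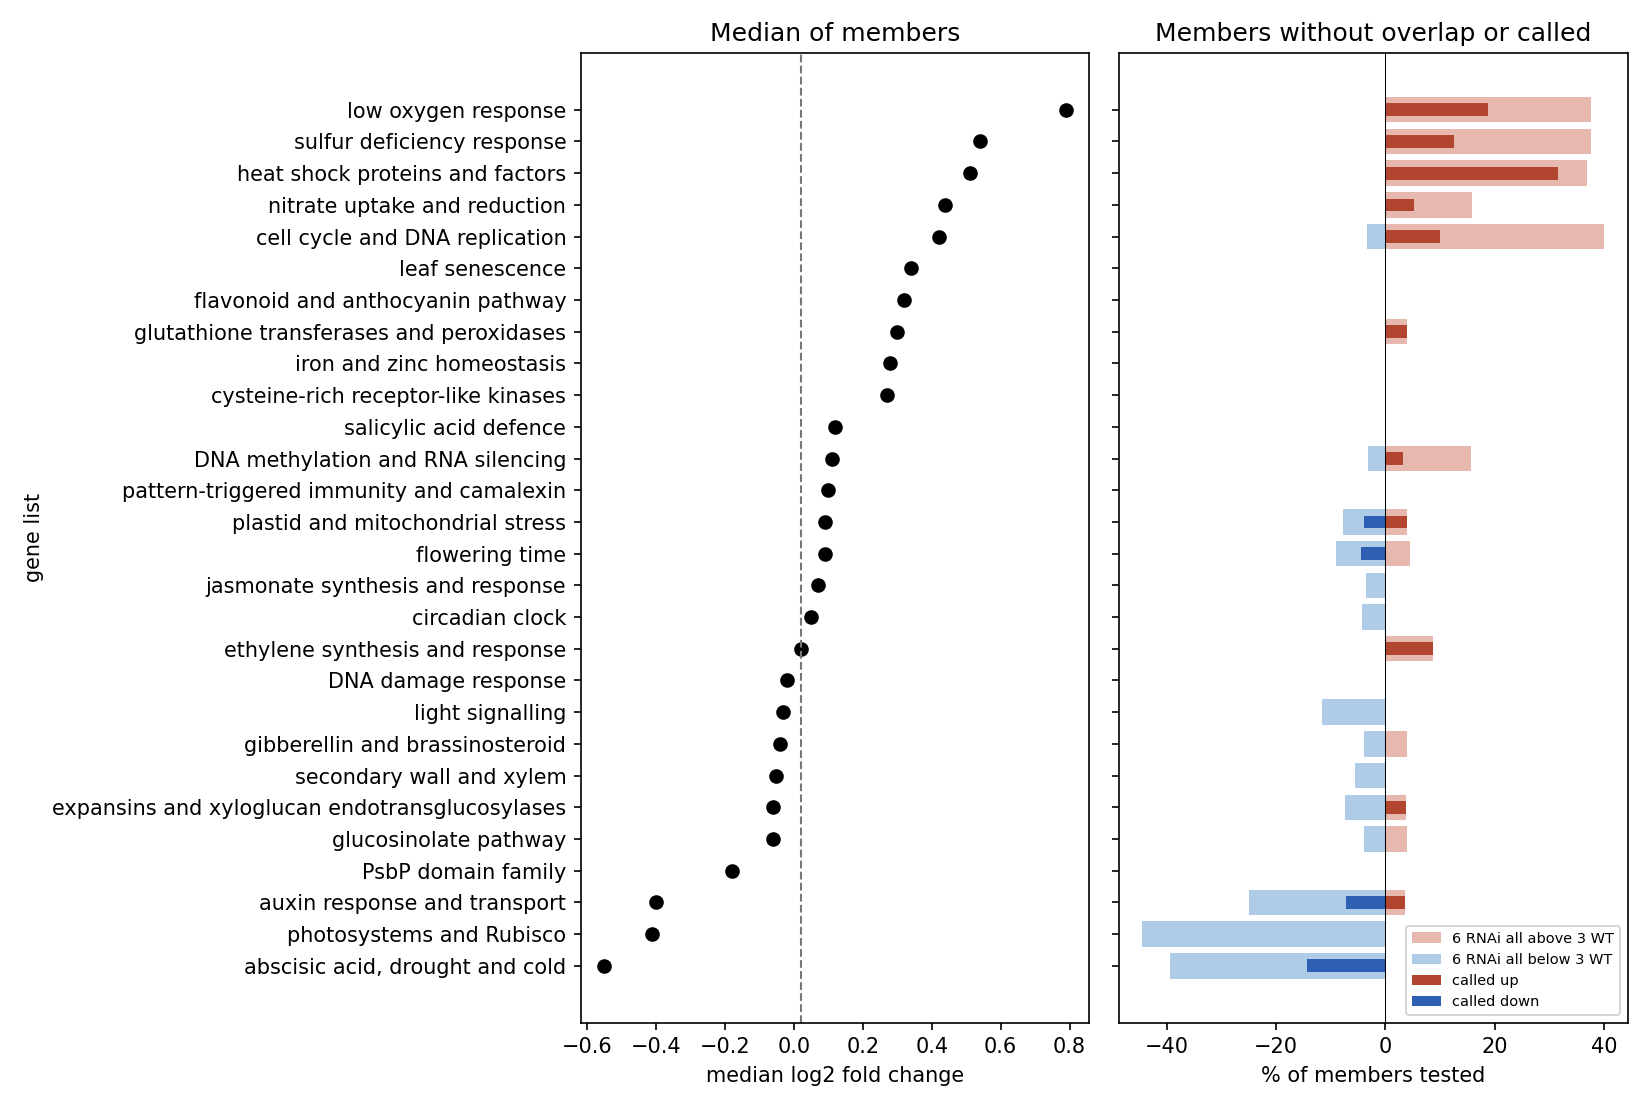
Left, the median log2 fold change of RNAi minus WT of each gene list with 9 or more members tested outside the chromosome 4 range (points) and of all genes (dashed line, 0.02). Right, the percent of members with all 6 RNAi libraries above (plus) or below (minus) WT in pale colour and called by edgeR in dark colour, with low oxygen, sulfur, heat shock and cell cycle genes to the plus side and photosystem and cold genes to the minus side.

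Genes of suberin synthesis, looked up after the values of FACT were seen, gave a mixed picture at very low level. Suberin is a lipid barrier laid down in the root endodermis, in bark and at wounds. FACT, which makes alkyl caffeates, had 68, 42 and 26 reads in dwarf, 5, 25 and 25 in large and 0 in each WT library, at least 10.6-fold higher than 3 reads per library would give. CYP86A1, a fatty acid hydroxylase, had 54, 33 and 50 reads, 8, 34 and 22 reads and 1, 0 and 4 reads in the same order (log2 fold change 4.21, SE 0.86, edgeR adjusted p = 0.0256), and ABCG20, a suberin exporter, had 11, 8 and 11, then 2, 15 and 5, then 0 reads in each (at least 2.88-fold). In all 3 genes large 1 was the lowest RNAi library. Of 12 suberin genes looked up, these 3 were called upwards, where 2.25% of all genes were, GPAT5, ASFT, CYP86B1, FAR1, FAR4, FAR5 and KCS2 were not, and ABCG2 and ABCG6 were too low to be tested. The FAR5 value of 0.04 changed sign under 6 alternatives.

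Levels of root markers are given beside the suberin genes. The 16 root markers summed to 45.5 to 54.6 CPM in RNAi (median 47.5) and 41.4 to 43.5 CPM in WT. The arms did not overlap in this sum, which includes PHO1. Of the 4 members tested, PHO1 alone lay above WT in every RNAi library, and 0 lay below. PLT1, PLT2, RHD6 and EXPA18 had 0 reads in all 9 libraries, and 8 of the 16 had at most 3 reads in any library. PHO1, a phosphate exporter of vascular tissue, was the single call of the 4 tested, at 11.5, 13.9 and 10.2 CPM in dwarf, 12.0, 13.0 and 11.6 CPM in large and 5.68, 6.09 and 6.32 CPM in WT (log2 fold change 1.00, SE 0.11, edgeR adjusted p = 0.00486). Its values were close together within each arm and did not overlap between them. The part of root tissue in the suberin values was not tested.

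Several risers were neighbours or members of small families. Of the 517 genes, 23 adjoining pairs among genes tested changed in the same direction and 2 pairs in opposite directions. Risers made up 419 of the 517, and no share over all genes was worked out. Some pairs overlap, as VAMP726 with AT1G04770 and AT1G71690 with AT1G71691, and may share reads. Nothing is read from the count of pairs. Of 12 genes annotated as ubiquitin carboxyl-terminal hydrolase-related, 6 were risers with log2 fold changes from 0.56 to 1.79, and they form 3 adjoining pairs, AT1G52430 with AT1G52450, AT1G65110 with AT1G65120 and AT5G61940 with AT5G61950. The GDSL lipase AT2G23540 had 0, 0 and 1 read in WT and 5 to 31 reads in RNAi (5.47, SE 0.97, edgeR adjusted p = 0.0159), and its neighbour AT2G23530 rose by 1.55. Among 43 GDSL lipase genes 5 were risers and among 32 peroxidase superfamily genes 6, with 0 fallers in either. Over all genes 2.22% were risers. These families were looked up after the list of risers was seen, so nothing is read from their counts. The last of the largest falls were those of the linker histone HIS1-3 (-1.31, SE 0.25), induced by drought, of the 14-3-3 protein GRF11 (-1.01, SE 0.17), of the receptor-like protein RLP33 (-0.87, SE 0.19) and of the peptide hormone RGF9 (-0.75, SE 0.15), each with edgeR's adjusted p between 0.0147 and 0.0309. HIS1-3 was at 5.18 to 10.9 CPM in RNAi and 24.1, 21.6 and 11.9 CPM in WT, where WT 3 lay close to the highest RNAi library. GH9B1, a cellulase of growing cell walls in the raised end of chromosome 1, and the pectin lyase-like gene AT1G10640 in the raised start were named after their values were seen. GH9B1 rose from 7.72, 7.05 and 10.5 CPM to between 16.4 and 31.1 CPM (1.61, SE 0.21) and AT1G10640 from 2.84, 2.37 and 4.58 CPM to between 8.43 and 18.7 CPM (2.13, SE 0.28).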

How the data were processed

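RNA-seq libraries of aboveground tissue (3 dwarf, 3 large, 3 WT) were read as the authors' deposited counts, whole numbers of reads per gene that were not normalized. Reads were trimmed with Trim Galore 0.4.1 and aligned with STAR 2.7.0a to TAIR10, per the submitters' processing notes. Neither the counting program nor its strand setting is given in the sources used here, and the kit named in the labels keeps no strand. Reads assigned to no gene (at most 0.9% of a library) or to several (0.228% to 0.309%) were left out.

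The counts were tested with edgeR 4.0.16 in R 4.3.3 (TMM factors, filterByExpr on both arms, quasi-likelihood test, Benjamini-Hochberg adjustment over all genes tested). DESeq2 1.42.0, voom in limma 3.58.1, other factors, filters and fits, and leaving out each library in turn were alternatives. Scripts were tested on simulated data. Overlap between arms was judged on log2 CPM with a prior count of 2. Raised regions were sought by segmentation of log2 ratios of genes with at least 5 CPM.

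Named genes were PPD3, the 10 largest rises and 10 largest falls among the 517 genes with a symbol and a mean of at least 5 CPM in the higher arm, and up to 2 called members of each of 30 gene lists with the smallest p. All other names were chosen after values were seen, also those of PPR genes, of neighbours and of genes at the border of the rule. The members and lists were chosen with earlier results of these data known. Folds against 0 reads use a floor of 3 reads per library and cover counting error only. Promoter windows and gene positions come from the TAIR10.1 reference annotation, which matched 32548 of 33977 gene codes. The result of 1 called list member is not reported here.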

Additional observations from a re-analysis of the deposited data

Results flagged for a closer look

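Among the genes named here, dwarf and large differed from each other in 2 by edgeR's test of that difference, both of them cold genes. Other members of the cold list were not looked at for this, so it is no count over that list. Over all genes outside the chromosome 4 range 122 differed, or 0.648%. The log2 difference of dwarf minus large was -1.07 for RD29A (adjusted p = 0.0450) and -1.39 for COR15A (adjusted p = 0.0278), with dwarf farther below WT in both. COR15A is not among the 517 genes.

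In 5 of 80 genes looked at, the lowest RNAi library stood apart from the other 5 by a limit that chance passes in about 1 in 20 groups. Dwarf 1 was lowest for GH9B1, at 16.4 CPM with a median of 27.0 CPM, and for AT1G10640, at 8.43 CPM with a median of 14.7 CPM. Dwarf 3 was lowest for CYCD3;3, at 3.92 CPM with a median of 5.28 CPM, and for USPL1, at 2.78 CPM with a median of 4.11 CPM. Dwarf 2 was lowest for AT3G25970, at 2.59 CPM with a median of 3.25 CPM.

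The share of reads assigned to no gene was 0.671% to 0.900% in the RNAi libraries and at most 0.667% in WT.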

How the results depend on the processing

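Over all 19870 genes 1014 were called and 517 outside the chromosome 4 range met the rule. These counts became 2107 and 1240 with DESeq2's Wald test, 3202 and 1497 with limma voom, 246 and 246 with the raised regions left out, and 289 and 271 with the regional steps taken out. The fit without the raised regions held 409 of the 517 genes. The fit of 3 groups gave 1461 and 778. Leaving out 1 library gave 28 to 1181 calls and 12 to 607 genes meeting the rule, lowest without WT 1 and highest without dwarf 1. Other factors and filters gave 803 to 979 calls and 382 to 512 genes. The cause of these differences was not tested.

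With the replicate number as a block, 550 genes were called and 229 met the rule. Libraries with the same number correlated between -0.24 and 0.426 in their deviations from group means, and those with different numbers between -0.508 and 0.575. These few values do not settle whether the numbers pair the samples.

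PPD3 (-0.07) lay between -0.16 and 0.03 when 1 library was left out, positive without WT 1. It was -0.24 with the regional steps taken out and -0.18 with limma voom, and it had no value with the regions left out. FAR5 (0.04) lay between -0.36 and 0.31 when 1 library was left out, and turned to -0.10 in the fit of 3 groups, -0.03 with the block, -0.36 without large 2, -0.04 without large 3, -0.12 without WT 2 and -0.05 without WT 3. Of 1460 values of 79 named genes under 19 alternatives, 1102 kept direction and call, 347 lost the call, 5 gained it and 6 changed sign. Low-level genes such as ABCG20 rest on few reads, and 3 WT libraries limit every call.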
